A study of Mus musculus with 4 samples.

Results

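The glutathione and peroxide defence genes described here are 10 of the 25965 genes listed in the deposited expression table: the glutathione peroxidases Gpx1, Gpx2, Gpx3 and Gpx4, the glutathione S-transferases Gstm1, Gstm2, Gstm3, Gsta4 and Gstp1, and the quinone reductase Nqo1. They were picked by gene symbol. Gstm3 and Gpx2 were included because both were lower with each of the hairpins against Smarca4, and the other 8 are relatives, taken to ask whether they moved the same way. The differences of Gstm3 and Gpx2 from the control are therefore a description of how they were chosen. All 10 were among the 13264 genes with a mean log2 CPM (CPM, reads of a gene normalised for library size, on a log2 scale) of at least 0 over the libraries, to which every count over all genes refers.

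The libraries came from a female mouse embryonic stem cell (mESC) line of an F1 cross of FVB and CAST mice, grown in 2i and differentiated by weaning into DME HiHi medium. There were 4 RNA-seq libraries: undifferentiated cells at day 0, and cells at day 6 that carried a non-silencing hairpin (Nons) or 1 of 2 hairpins against Smarca4, called Smarca4.4 and Smarca4.6. Per the labels, virus carrying the hairpins was added on day 2 and puromycin on day 3, so day 0 precedes transduction although its genotype field reads nonsilencing control. The same field calls the day 6 libraries, Nons included, a Smarcc knockdown, so groups were taken from the titles. Each group had 1 library. The spread between replicates is therefore unknown, and no difference has a test. Intervals below are exact 95% intervals of counting error only, and they compare libraries, not conditions.

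Glutathione is a small thiol that cells use to reduce peroxides and to tag reactive compounds for export. Glutathione peroxidases, some of them selenoproteins, spend it on hydrogen peroxide and lipid peroxides, whereas glutathione S-transferases couple it to electrophiles. Many of these genes are targets of the transcription factor NRF2, which KEAP1 holds low in unstressed cells, and Nqo1 is a widely used readout of that pathway. Smarca4 encodes the motor ATPase of BAF, a complex that moves and evicts nucleosomes.

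The guide strands of both hairpins are shown because the comparisons rest on them, with the seed (bases 2 to 8) in capitals, read from the designed oligonucleotides of the study. The guides pair with the longest Smarca4 coding transcript from base 5474 (Smarca4.4) and base 3363 (Smarca4.6). No transcript of another gene held the same match.
Smarca4.4 guide: tTTATTACtgtctgactccagt
Smarca4.6 guide: tTGCATAAtagtgttcatcagt
The complement of the Smarca4.4 seed was in the longest coding transcript of 0 of the 10 genes, against 13.3% of 21877 genes. That of the Smarca4.6 seed was in 1 of 10, Nqo1, against 13.9% of genes. Gstm3 and Gpx2 held neither.

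The sequence upstream of the transcription start is shown for the pair of genes that led the choice, Gstm3 and Gpx2. It is from RefSeq on GRCm38.p6, written 5′ to 3′ on the gene's strand, and covers the 250 bases before the RefSeq start, leaving out bases that GENCODE M21 places in an exon of the gene. Of the Gstm3 window 109 bases were left out on that account, and the rest lies at chr3:107969284-107969424 on the minus strand. The Gpx2 window lies whole at chr12:76795555-76795804 on the minus strand. Neither stretch holds a match to the motifs below, which capitals would mark.
Gstm3: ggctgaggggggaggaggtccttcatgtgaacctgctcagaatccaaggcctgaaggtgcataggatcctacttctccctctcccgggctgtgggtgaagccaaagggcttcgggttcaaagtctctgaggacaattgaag
Gpx2: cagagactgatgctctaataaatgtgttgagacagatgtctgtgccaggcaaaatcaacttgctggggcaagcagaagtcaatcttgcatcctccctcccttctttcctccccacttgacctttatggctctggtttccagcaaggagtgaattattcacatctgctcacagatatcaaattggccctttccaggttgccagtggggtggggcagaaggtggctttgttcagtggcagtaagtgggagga
The Gpx2 stretch of 250 bases was 49.2% GC with 0 CpG, and the Gstm3 stretch of 141 bases was 56.0% GC with 2 CpG. Motifs were searched in the full 250 bases before each RefSeq start. Such a window was given for 9 of the 10 genes, with none for Gsta4, and for 8 of the 9 a window held bases of an exon of the gene itself. The GC box of Gstm3 lay in such an exon. Gstm1 and Gpx4 had more than 1 window. The counts that follow are of genes and the shares are of promoters, so the measures differ. The core of the antioxidant response element that NRF2 binds (TGACNNNGC; all motifs were searched on either strand) was in 0 of 9, against 10.2% of 32851 promoters. The AP-1 site TGANTCA was in 1 of 9 (Gstp1) against 6.75% of promoters; these motifs can share bases, which did not arise in the 9. TATAAA was in 2 (Gstm1 and Nqo1) against 12.4%, and the GC box GGGCGG was in 5 (Gstm3, Gstp1, Gpx3, Gpx4 and Nqo1) against 32.7%. A match is only a match of letters, and its absence says nothing beyond this window.

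Depth ran from 18599402 reads at day 0 to 47143739 in Smarca4.4, with 45759793 in Nons and 36495575 in Smarca4.6. A level of 3 reads, taken as the floor, was between 0.0636 and 0.161 CPM, below every level of the 10 genes. Smarca4 itself was 0.80 lower on the log2 scale in Smarca4.4 than in Nons (interval of the difference -0.85 to -0.76) and 0.40 lower in Smarca4.6 (-0.44 to -0.35), so depletion at the RNA level was partial with both. Day 0 cells expressed mESC markers (10 genes, 4674 CPM summed), of which 9 were lower in Nons and Pou5f1 was higher. The markers other than Pou5f1 summed to 3950 CPM at day 0, then 172 (Nons), 151 (Smarca4.4) and 139 (Smarca4.6). At day 6, 4 smooth muscle markers summed to 1062 CPM (Nons), 783 (Smarca4.4) and 668 (Smarca4.6), and all 4 were lower with each hairpin. Pou5f1 was at 915 CPM (Nons), 701 (Smarca4.4) and 982 (Smarca4.6), and of the 10 markers 5 were lower than Nons with each hairpin, 4 of them with both. The 6 markers of simple epithelium, where Gpx2 is best known, summed to 403 CPM at day 0 and to 3367 (Nons), 3330 (Smarca4.4) and 2907 (Smarca4.6). Of these markers, 4 were lower than Nons with Smarca4.4 and 6 with Smarca4.6, 4 of them with both. The sums for endoderm (8 markers) were 28.6, 37.5 and 36.0 CPM at day 6 and those for mesenchyme (6 markers) 35.3, 36.9 and 33.3, while blood markers summed to at most 0.940 CPM with Ptprc at 0 reads in every library. Of the endoderm markers, 1 was lower than Nons with Smarca4.4, 1 with Smarca4.6 and 0 with both. For mesenchyme these counts were 1, 3 and 1. In bulk RNA, fewer cells of a type and less RNA per cell cannot be told apart, and the part that cell makeup has in the differences below was not tested.

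**Figure D1:**
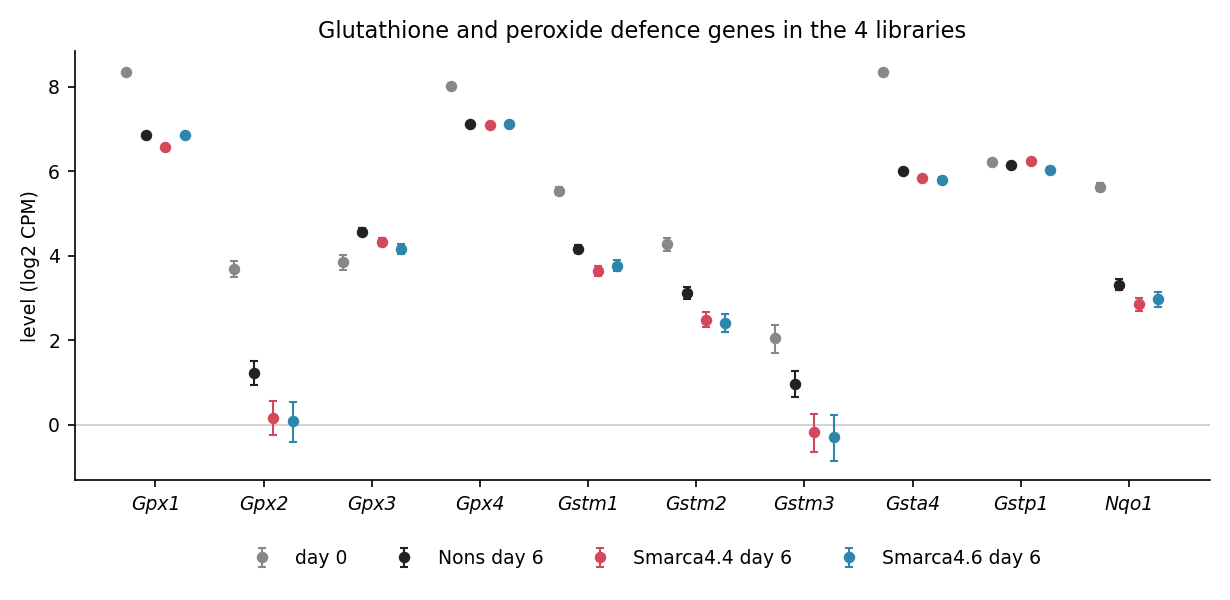
Level (log2 CPM) of each of the 10 genes in the day 0, Nons, Smarca4.4 and Smarca4.6 libraries, with exact 95% counting intervals. Of the 10 genes, 9 were at their highest level or within counting error of it at day 0, Gpx3 was highest in Nons, and Gstm3 and Gpx2 had the lowest levels at day 6.

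Levels between genes were compared as CPM per kilobase of exon (CPM per kb), using the merged exons of GENCODE M21. In Nons at day 6 the highest levels were those of Gpx1, the general cytosolic peroxidase, at 80.5 CPM per kb, and Gpx4, which reduces lipid peroxides in membranes, also at 80.5. Their counting intervals overlapped. Gsta4, which clears the lipid peroxidation product 4-hydroxynonenal, followed at 50.6 and the pi class transferase Gstp1 at 45.6 CPM per kb. Secreted Gpx3 (13.2) and Gstm1 (12.1) were next and overlapped in their intervals, then Nqo1 at 6.42 and Gstm2 at 5.19. Gstm3, with an interval of 1.21 to 1.84, and Gpx2 at 0.733 CPM per kb stood lowest. The merged exons of Gpx2 include a transcript that spans its introns. Over the longest protein-coding transcript Gpx2 was at 2.21 CPM per kb, above Gstm3, Gpx4 (139) stood above Gpx1 (108), and Gstp1 (86.1) above Gsta4 (65.6).

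At day 0 the order was different. Gsta4 led with 258 CPM per kb, followed by Gpx1 with 225 and Gpx4 with 151. Gstp1 was at 48.0, Nqo1 at 32.0 and Gstm1 at 31.5 CPM per kb. Gstm2 (11.5), Gpx3 (7.98), Gpx2 (3.99) and Gstm3 (3.16) were the lowest. Over the longest protein-coding transcript Gpx2 was at 12.04 CPM per kb at day 0, above Gpx3 at 9.07. Gsta4 was thus far above Gstp1 at day 0 and close to it in Nons.

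Between day 0 and Nons at day 6, 7 of the 10 genes were at least 2-fold lower, as were 12.3% of all genes, and 0 were at least 2-fold higher, as were 19.6% of all genes. Their median difference was -1.26 on the log2 scale, where that of all genes was 0.031. Among the 8 relatives alone, 5 were at least 2-fold lower. Intervals lay below 0 for 8 of the 10 (40.1% of all genes) and above 0 for 1, Gpx3 (42.8%). This comparison also shares the Nons library with those of the hairpins, so the values are given side by side and not related to each other.

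The peroxidases split. Gpx2, the gastrointestinal peroxidase found mostly in epithelia, went from 239 reads at day 0 to 108 in Nons at much greater depth, a log2 CPM of 3.68 against 1.24 and a difference of -2.44 (-2.79 to -2.11). Gpx1 went from 8.34 to 6.86, a difference of -1.48 (-1.53 to -1.43), and Gpx4 from 8.02 to 7.12, a difference of -0.91 (-0.96 to -0.85). Gpx3 was the one member that was higher at day 6, with log2 CPM 3.85 at day 0 and 4.58 in Nons, a difference of 0.72 (0.53 to 0.92).

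Of the transferases, Gsta4 was lowest against day 0, with a log2 CPM of 8.35 at day 0 and 6.00 in Nons, a difference of -2.35 (-2.41 to -2.29). The mu class genes were lower too, with differences of -1.38 (-1.52 to -1.24) for Gstm1, -1.15 (-1.36 to -0.94) for Gstm2 and -1.07 (-1.53 to -0.62) for Gstm3. Summed with Gstm6, which was itself 0.81 higher in Nons, the Gstm3 difference was 0.046. Gstp1 hardly differed, at 6.22 and 6.14 log2 CPM, a difference of -0.073 (-0.16 to 0.019). Summed with its near-identical neighbour Gstp2, which was 2.21 lower at day 6 on the log2 scale, the difference was -0.38. Nqo1, which reduces quinones without forming radicals, went from 5.63 to 3.32 log2 CPM, a difference of -2.32 (-2.48 to -2.15).

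Gstm3 and Gpx2, the genes that the choice rests on, were 2 of the 10 at least 2-fold lower than Nons with Smarca4.4 and again with Smarca4.6. Of all genes, 0.309% were that much lower with Smarca4.4 and 0.799% with Smarca4.6, and 0.121% (16 genes) with both. Nothing is read from that count, which the choice fixed. Gstm3, a mu class transferase, rested on 77 reads at day 0, then 90 (Nons), 42 (Smarca4.4) and 30 (Smarca4.6), or 4.14, 1.97, 0.891 and 0.822 CPM. Both knockdown libraries lay below the control, at 45.3% and 41.8% of its level. Gpx2 rested on 239, 108, 53 and 39 reads in the same order, or 12.8, 2.36, 1.12 and 1.07 CPM, so the knockdown libraries were at 47.6% and 45.3% of Nons. The counts behind both genes are small. The interval of the Gstm3 difference with Smarca4.4 (-1.14) ran from -1.71 to -0.60 and with Smarca4.6 (-1.26) from -1.91 to -0.65. For Gpx2 the differences were -1.07 (-1.57 to -0.58) and -1.14 (-1.71 to -0.60). All 4 intervals include changes smaller than 2-fold, and with a pseudocount of 1 CPM neither gene passed 2-fold.

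**Figure D2:**
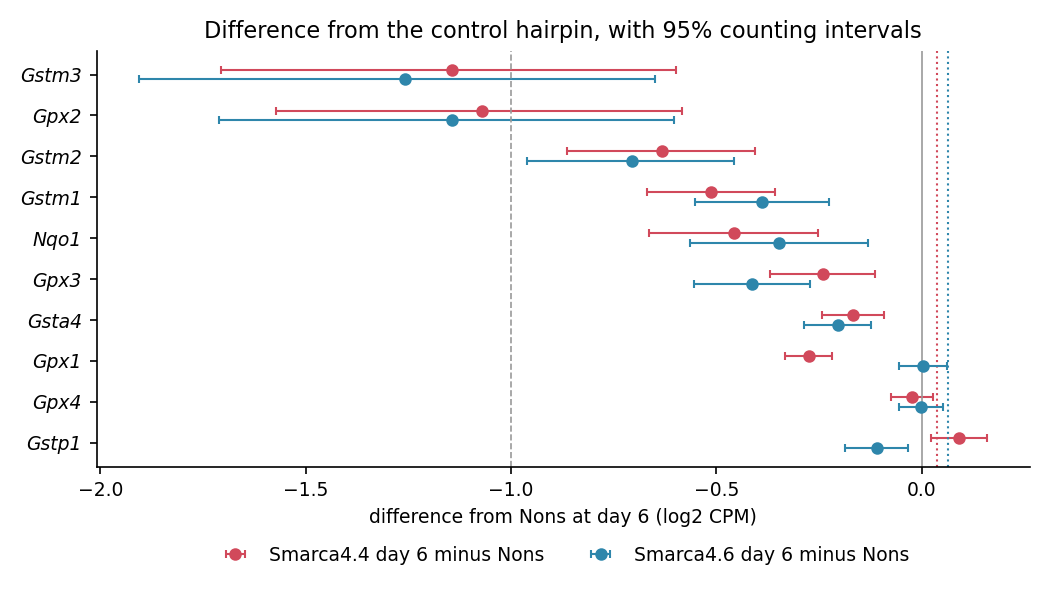
Difference in log2 CPM from Nons at day 6 for the 10 genes, for Smarca4.4 and Smarca4.6, with exact 95% counting intervals; the dashed line marks a 2-fold fall and the dotted lines the medians of all genes (0.038 and 0.064). Gstm3 and Gpx2 lie past the dashed line, Gstm2, Gstm1, Nqo1, Gpx3 and Gsta4 lie between it and 0 with both hairpins, and Gpx1, Gpx4 and Gstp1 lie near 0 with one hairpin or both.

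The relatives followed in direction more than in size. Of the 8 relatives, 0 were at least 2-fold lower or higher with either hairpin; of all genes, 0.882% were that much higher with Smarca4.4 and 1.03% with Smarca4.6. The interval of the difference lay wholly below 0 for 6 of the 8 with Smarca4.4 (24.3% of all genes) and for 6 of the 8 with Smarca4.6 (24.4%). It did so with both hairpins for 5 (Gstm1, Gstm2, Gsta4, Gpx3 and Nqo1), against 15.5% of all genes. It lay above 0 for 1 (Gstp1 with Smarca4.4, 34.4% of all genes) and for 0 with Smarca4.6 (39.6%). Counting intervals narrow as reads rise, so small differences of abundant genes can exclude 0. The shares of all genes with such intervals were not matched for level, here or elsewhere. The median difference of the 8 was -0.26 with Smarca4.4 and -0.28 with Smarca4.6, whereas the medians of all genes were 0.038 and 0.064. At a threshold of 1.5-fold with both hairpins, 1 of the 8 was lower, Gstm2, against 1.22% of all genes. As the control library is common to both comparisons, a high value in Nons alone would lower a gene in both.

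The mu class relatives of Gstm3 were lower with both hairpins. In order from day 0 through Nons and Smarca4.4 to Smarca4.6, the log2 CPM of Gstm2 was 4.27, 3.12, 2.49 and 2.42. Against Nons the difference was -0.63 (-0.86 to -0.41) with Smarca4.4 and -0.71 (-0.96 to -0.46) with Smarca4.6, or 64.5% and 61.3% of the control level. Gstm1, the most abundant of the mu class members, had 5.53, 4.16, 3.65 and 3.77 log2 CPM in the same order. Its differences from Nons were -0.51 (-0.67 to -0.36) and -0.39 (-0.55 to -0.23). For both genes the knockdown libraries differed from each other by less than the counting error.

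Over the same order of libraries Gsta4 had log2 CPM 8.35, 6.00, 5.84 and 5.80, so its differences from Nons were small, -0.17 (-0.24 to -0.091) and -0.20 (-0.29 to -0.12). Nqo1 had 5.63, 3.32, 2.86 and 2.97 log2 CPM, and differed from Nons by -0.46 (-0.66 to -0.25) with Smarca4.4 and -0.35 (-0.57 to -0.13) with Smarca4.6. The levels of Nqo1 at day 6 rest on between 286 and 456 reads. Gstp1 was the exception among the transferases, with log2 CPM 6.22, 6.14, 6.23 and 6.03. It was 0.091 (0.022 to 0.16) above Nons in Smarca4.4 and at -0.11 (-0.19 to -0.033) in Smarca4.6, and the libraries of the hairpins differed from each other by 0.20 (0.13 to 0.28).

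Among the peroxidases, Gpx3 was lower with both hairpins. Its log2 CPM over the libraries was 3.85, 4.58, 4.33 and 4.16, with differences of -0.24 (-0.37 to -0.11) and -0.41 (-0.55 to -0.27). Gpx3 is the plasma peroxidase, and its levels at day 6 rest on between 654 and 1091 reads. Gpx1 was lower in one library only, with log2 CPM 8.34, 6.86, 6.58 and 6.86. The differences were -0.28 (-0.33 to -0.22) and 0.0025 (-0.056 to 0.061), and the Smarca4.4 library was below Smarca4.6, with a difference of -0.28 (-0.34 to -0.22). Gpx4, essential in early development, stayed closest to the control, with 8.02, 7.12, 7.09 and 7.11 log2 CPM, and both intervals (-0.074 to 0.027 and -0.056 to 0.051) included 0. With differences centred on the median of autosomal genes, Gpx1 and Gpx4 in Smarca4.6 were at -0.059 and -0.064.

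The mu class genes sit side by side on mouse chromosome 3, and the cluster was laid out after the values of its members had been seen. Along mm10 the order is Gstm5, Gstm7, Gstm6, Gstm3 (107942333 to 107969283), Gstm2 (107981702 to 107986453), Gstm1 (108012255 to 108017973) and Gstm4. The run of Gstm6, Gstm3, Gstm2, Gstm1 and Gstm4 was lower with both hairpins. Every interval was below 0. Gstm3 was chosen for low values, and the run was bounded by the genes that were low. Nothing is therefore read from its count beside the 15.5% of all genes with intervals below 0 with both hairpins. Gstm6 was at -0.58 (-0.86 to -0.30) and -0.85 (-1.18 to -0.53) against Nons, and Gstm4 at -0.50 (-0.68 to -0.32) and -0.44 (-0.63 to -0.25). Gstm5 and Gstm7, at the left end, had intervals that included 0 with both hairpins. Gstm5 was at 0.024 and -0.12, and Gstm7, on 35 to 43 reads, at -0.15 and 0.029.

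To the right of the cluster, Ampd2, Gnat2 and Gnai3 had intervals above 0 with both hairpins, as did 24.8% of all genes. Ampd2, which encodes an AMP deaminase, was higher by 0.35 (0.27 to 0.44) and 0.48 (0.39 to 0.56), Gnat2 by 0.58 (0.22 to 0.94) and 0.95 (0.59 to 1.31), and Gnai3 by 0.14 (0.11 to 0.18) and 0.079 (0.042 to 0.12). Gm12500, also on the right, was at 0.43 (0.10 to 0.75) and 0.33 (-0.025 to 0.68). To the left, Csf1 was at 0.53 (0.42 to 0.64) and 0.039 (-0.087 to 0.16). Also on that side, 4933431E20Rik was at 0.17 and -0.095 and Eps8l3, which did not pass the filter, at 0.19 and 0.56. The intervals of 4933431E20Rik and Eps8l3 included 0 with both hairpins. During differentiation the Gstm genes did not move as one. Against day 0, Gstm5 (2.00), Gstm4 (0.99) and Gstm6 (0.81) were higher in Nons while Gstm1, Gstm2 and Gstm3 were lower.

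**Figure D3:**
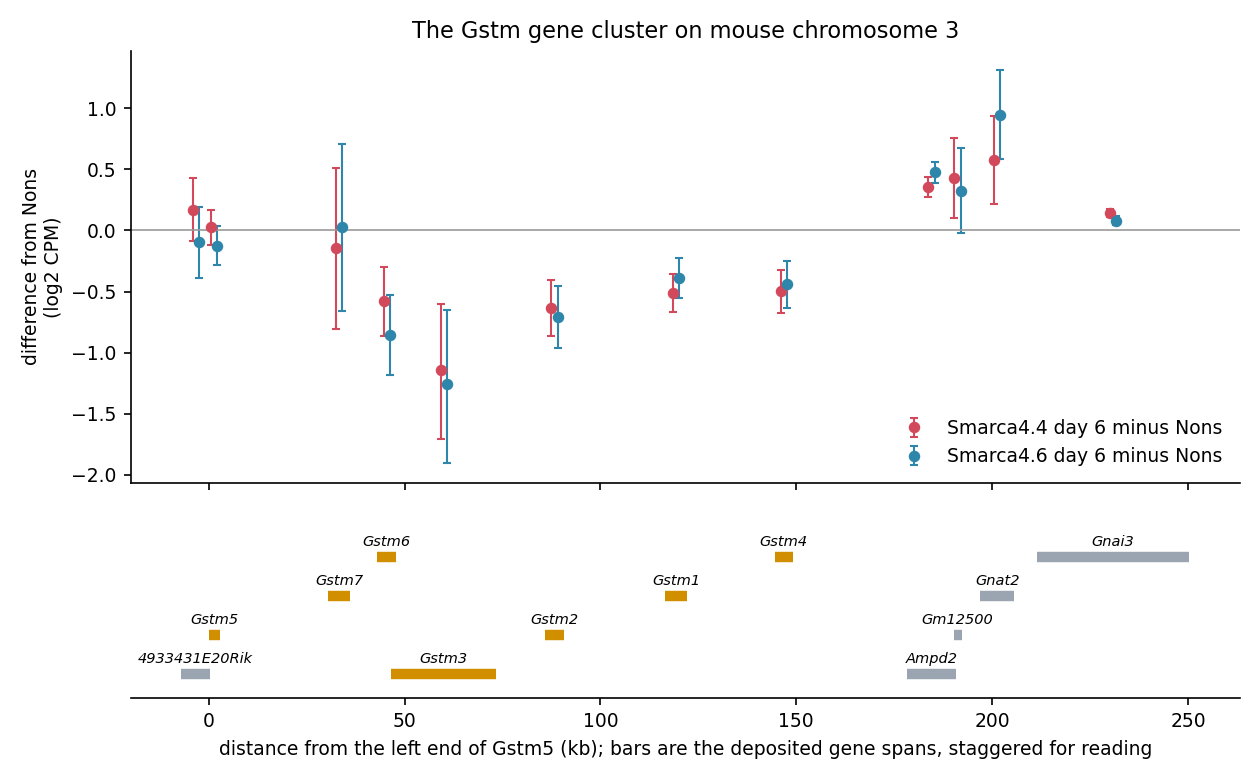
Difference in log2 CPM from Nons at day 6 (upper panel, with exact 95% counting intervals) for genes of the Gstm cluster and its neighbours, against distance in kb from the left end of Gstm5; the lower panel shows the deposited gene spans, Gstm genes in orange. Gstm6, Gstm3, Gstm2, Gstm1 and Gstm4 lie below 0 with both hairpins, and Ampd2, Gnat2 and Gnai3 lie above 0. Csf1 and Eps8l3, on the left, are not drawn.

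Several of these genes share sequence, which limits how reads can be assigned. Of the 75-base stretches (the read length) of the longest coding transcript, 21.6% of Gstm3 were also in a transcript of another gene, among them Gstm1, Gstm6 and the model Gm8834. The share was 14.8% for Gstm1, 3.13% for Gstm2 and 10.3% for Gpx2, whose stretches recur in Gpx2-ps1. It was 57.7% for Gstp1, through Gstp2, and 55.3% for Gpx4, through Gpx4-ps2. Gsta4, Gpx1, Gpx3, Nqo1 and the neighbour Gstm4 shared 0. The deposited span of Gstm3 also overlaps that of Gstm6 by 1417 bases. Summing Gstm3 with Gstm6 left differences of -0.70 with Smarca4.4 and -0.95 with Smarca4.6, and summing every Gstm gene left -0.37 and -0.41. For Gstp1 with Gstp2 the sums were at 0.10 and -0.10.

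Gpx2 (chr12:76792335-76795554, minus strand) lies inside Fntb, a farnesyltransferase subunit gene on the plus strand, with no shared exon bases. The strand setting of the counting was not stated, so reads of Fntb introns could fall on Gpx2. Fntb was at 0.042 (-0.044 to 0.13) with Smarca4.4 and -0.021 (-0.11 to 0.072) with Smarca4.6, intervals that included 0 in both. Of the other members, Gsta4 lies at chr9:78191966-78209348, Gpx1 at chr9:108339080-108340338, Gpx3 at chr11:54902453-54910377, Gpx4 at chr10:80047166-80056439, Gstp1 at chr19:4035411-4037912 and Nqo1 at chr8:107388225-107403206, all in mm10.

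The rest of the pathway was described with lists of related genes, of which none had a gene past the filter that was at least 2-fold lower or higher with both hairpins (0.121% and 0.392% of all genes). Below the filter, Osgin1 was that much lower and Gpx6 that much higher with both, on 1 to 13 reads at day 6. Other glutathione S-transferases were mostly lower. Of 20 listed, 19 were found and 11 passed the filter, with medians of -0.20 and -0.12 against Nons. Intervals lay below 0 with both hairpins for 5 of the 11 and above 0 for 0, where all genes gave 15.5% and 24.8%. The 5 were Gstm6, Gstm4, the microsomal Mgst3 (-0.58 and -0.54), the theta class Gstt1 (-0.67 and -0.48) and the zeta class Gstz1 (-0.20 and -0.26). Of these 11, 10 had intervals above 0 in Nons against day 0, as did 42.8% of all genes. Most libraries in the mean that sets the filter are from day 6, so it favours genes high at day 6. Gstt1 passed with 0 reads at day 0. Gsta3, with 166 reads at day 0 and 6 in Nons (-6.09), did not pass. The count is therefore not set against that of the members.

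Of 4 other glutathione peroxidases, 2 passed the filter. Both had intervals below 0 with both hairpins, as did 15.5% of all genes. Gpx7, an endoplasmic reticulum peroxidase, was at -0.22 (-0.40 to -0.036) and -0.55 (-0.77 to -0.34), and its relative Gpx8 at -0.35 (-0.47 to -0.22) and -0.44 (-0.58 to -0.29). Gpx8 was 4.41 higher in Nons than at day 0 on the log2 scale, unlike Gpx1, Gpx2 and Gpx4.

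Genes that make and recycle glutathione showed no common direction. Of 19 that passed the filter, 5 had intervals below 0 and 4 above 0 with both hairpins (15.5% and 24.8% of all genes). Their medians were 0.032 and 0.0089. Glrx, a glutaredoxin, was the lowest in common (-0.69 and -0.70). Chac1, which degrades glutathione, was the highest, at 0.57 (0.45 to 0.70) with Smarca4.4 and 1.60 (1.48 to 1.71) with Smarca4.6, the one gene past the filter in any list that differed by 2-fold with a single hairpin. Gclc, the catalytic subunit of the rate-limiting enzyme of glutathione synthesis, was at -0.13 and -0.18. Its partner Gclm was at 0.032 with Smarca4.4 and -0.38 with Smarca4.6.

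Of 18 thioredoxin, peroxiredoxin, catalase and superoxide dismutase genes, intervals lay below 0 for 5 and above 0 for 5 with both hairpins. The shares of all genes were 15.5% below 0 and 24.8% above 0. The medians of the 18 were -0.0062 and 0.084. Txnip, an inhibitor of thioredoxin, was at -0.44 and -0.94, and Sesn2, a stress-induced sestrin, at 0.40 and 0.68. Of 17 genes for selenoproteins and their synthesis, 2 were below 0 and 4 above 0 with both (15.5% and 24.8% of all genes). Their medians were 0.095 and 0.062. Sepp1, which encodes secreted selenoprotein P, was the lowest in common (-0.81 and -0.61), and Ept1, the gene of selenoprotein I, the highest (0.20 and 0.28). Of 8 genes for lipid peroxidation and iron, 1 was below 0 and 4 above 0 with both (15.5% and 24.8% of all genes). The 1 below 0 was Gch1, the first enzyme of tetrahydrobiopterin synthesis (-0.46 and -0.61). The 4 above 0 included the transferrin receptor Tfrc (0.50 and 0.57), and the medians of the 8 were 0.088 and 0.21.

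Of 19 NRF2 targets other than the members that passed the filter, 11 had intervals below 0 and 2 above 0 with both hairpins (15.5% and 24.8% of all genes), with medians of -0.13 and -0.18. Gclc, Gclm, Slc7a11, Txnrd1 and Srxn1 are counted both here and in an earlier list. Blvrb, a biliverdin reductase, was at -0.78 (-0.88 to -0.68) and -0.96 (-1.08 to -0.85), whereas Srxn1, which repairs oxidised peroxiredoxins, was at 0.59 and 0.24. Hmox1, heme oxygenase and a classic target, was higher as well, at 0.33 (0.28 to 0.39) and 0.11 (0.048 to 0.16). Of the 8 NRF2 regulators, 4 were below 0 and 2 above 0 with both (15.5% and 24.8% of all genes). Their medians were -0.068 and -0.15. Nfe2l2, which encodes NRF2, was at -0.21 (-0.28 to -0.15) and -0.35 (-0.42 to -0.28), and its inhibitor Keap1 at 0.13 (0.0082 to 0.25) and 0.36 (0.23 to 0.48). Cul3, the ubiquitin ligase scaffold that works with KEAP1, was at 0.14 and 0.20, and Maff, a small MAF partner of NRF2, at -0.28 and -0.50. Of the other regulators, Bach1 was at -0.16 (-0.24 to -0.093) and -0.15 (-0.22 to -0.073), and Mafg at -0.13 and -0.14. Mafk was at 0.13 and -0.33, and Nfe2l1 at -0.0081 and 0.057. Gsta3, Gstt1, Gstz1, Mgst3, Gpx5, Gpx7, Gclc, Gclm, Hmox1, Nfe2l2, Keap1, Bach1, Mafg, Mafk and Nfe2l1 were named after their values were seen.

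**Figure D4:**
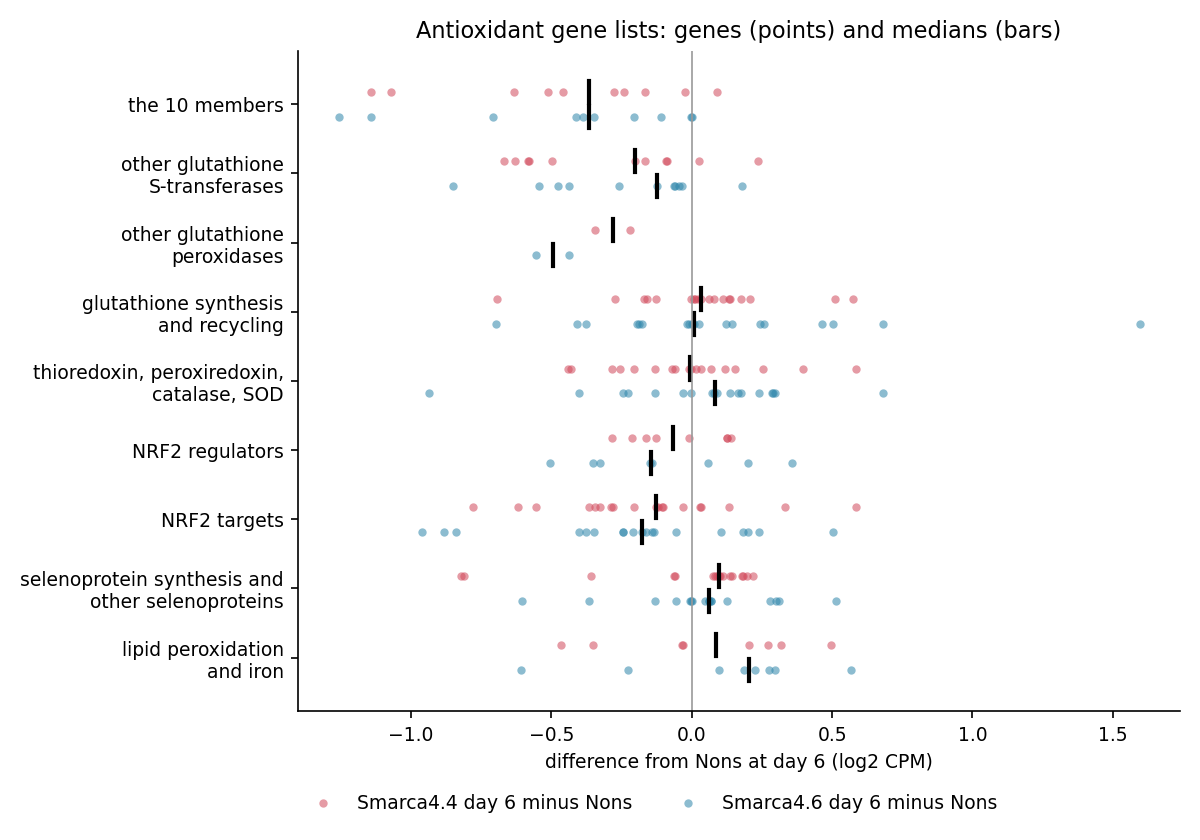
Difference in log2 CPM from Nons at day 6 for the 10 members and for each gene of 8 related lists that passed the filter (points), with the median of each list (bars), for Smarca4.4 and Smarca4.6. The members' medians are -0.37 with both hairpins, 2 of the members having been chosen for low values, and the other lists' medians run from -0.28 to 0.095 with Smarca4.4 and from -0.50 to 0.21 with Smarca4.6.

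Profiles over the 4 libraries were compared by the Euclidean distance of mean-centred log2 CPM, as a description over 4 points. The 3 genes nearest to Gstm3 were Fam169b (distance 0.22), Calr4 (0.28) and Chchd10 (0.32), a mitochondrial gene. Of the members, Gstm2 was the closest to Gstm3, at rank 11 of all genes, followed by Gstm1 at rank 39, while Gpx2 was at rank 581. The nearest to Gpx2 were P2rx7 (0.24), an ATP-gated channel, Klf15 (0.32), a transcription factor, and Gdf15 (0.44), a stress-induced cytokine. Nqo1 was the member closest to Gpx2, at rank 50, and Gstm3 was at rank 190.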

How the data were processed

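RNA-seq was paired-end with 75-base reads. The authors trimmed reads with trim_galore, aligned them with HISAT2 (named with bcl2fastq and mm10 in the submitters' processing notes; the methods also name tophat) to mm10 masked at FVB and CAST variants, and quantified genes in SeqMonk. The deposited values are log2 CPM, with 1 column per library. The strand setting and annotation version are not given in the sources used here.

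Values up to 1000 reads were whole multiples of 1 read (tolerance 0.1 of a read), which gave reads and totals per library, and a gene with 0 reads carried the value of 0.9 of a read. Differences are between deposited log2 CPM values, with exact conditional (Clopper-Pearson) 95% intervals from reads, covering counting error only; reads are not independent molecules. With 1 library per group no test was run, and no count model was fitted. Genes with a mean log2 CPM of at least 0 were kept. Calls were differences of at least 2-fold, or intervals that exclude 0. The computations were tested on simulated reads. The members and lists were chosen with earlier results of these data known. Named by rule are Smarca4, the members, for each list the largest rise and fall common to both hairpins, and the 3 profiles nearest to Gstm3 and Gpx2; genes named otherwise are given as such, and the neighbours of the Gstm cluster, Gstp2 and Fntb were named for their position or sequence.

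Exon lengths, transcripts and shared stretches came from GENCODE M21 on GRCm38, and promoters from RefSeq. Alternatives were centring on the autosomal median, a pseudocount of 1 CPM, TMM factors (computed in Python, used as a scaling only), no filter, a mean log2 CPM of at least 3, a fold of 1.5, summed reads of near-identical genes and other transcript lengths. Python 3.11.15 was used with numpy 2.4.6, pandas 2.3.3, scipy 1.17.1 and matplotlib 3.10.9.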

Additional observations from a re-analysis of the deposited data

Results flagged for a closer look

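Gstp1 lay on opposite sides of the control with the hairpins, with both counting intervals excluding 0: the difference from Nons on the log2 scale was 0.091 with Smarca4.4 and -0.11 with Smarca4.6. With 1 library for each hairpin the difference between them was not tested.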

How the results depend on the processing

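No paired analysis was possible because the groups hold single libraries, and for the same reason no library could be left out. Of 183 alternative values of counts and medians, 158 stayed within 1.5 times the count or the interval of the median, and 25 moved. With a pseudocount of 1 CPM, 0 members were at least 2-fold lower with Smarca4.4 and 0 with Smarca4.6, and over all genes 11 and 38 were lower and 33 and 38 higher, in place of 41, 106, 117 and 136. Without a filter 912, 1006 and, between day 0 and Nons, 10853 genes were at least 2-fold lower, and 1353, 1283 and 4506 higher; with a mean log2 CPM of at least 3 these were 2, 21 and 933 lower and 16, 17 and 1297 higher, in place of 1635 and 2600 for the day comparison. Both filters change which genes are tested. Without a filter, a gene with 0 reads at day 0 and in Nons was at -1.30 through depth alone. Such undetected genes are among the 10853. Without a filter the median of the other glutathione peroxidases was -0.13, -0.055 and, between day 0 and Nons, -0.72. Gpx5, with 0 reads in every library, was a middle gene of each of these medians. Its values of -0.043, 0.33 and -1.30 reflect depth only. With Smarca4.6 the median of the peroxidases past the filter was -0.56 after centring and -0.56 with TMM factors. The selenoprotein median with TMM factors was -0.0073, a shift set by the scaling. At 1.5-fold, 1 member (Gpx3) was higher at day 6 than at day 0. Of 125 alternative values for single genes, 96 stayed the same within their intervals, 28 moved and 1 changed direction: the Gstm3 difference between day 0 and Nons was 0.046 when summed with Gstm6, which was higher in Nons. The sums of near-identical genes and the length over protein-coding transcripts alone were chosen after seeing the data. At 30 to 108 reads at day 6, depth limits Gstm3 and Gpx2 most.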
